A study of Mus musculus with 40 samples.

Results

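The core and linker histone genes of mouse T cells are described here across 6 groups of RNA libraries. They were taken by name, as every gene of the deposited table whose name starts with Hist and a digit, which gave 70 of 39179 genes. By cluster, 56 belong to Hist1 on chromosome 13 (21715711 to 51203066), 10 to Hist2 on chromosome 3 (96219885 to 96270192), 3 to Hist3 on chromosome 11 (58948911 to 58955192) and 1 to Hist4 on chromosome 6 (136803993 to 136804431), by a RefSeq annotation of GRCm38, the assembly behind the mm10 build of the deposited files. By type, read from the gene name, 6 are genes of the linker histone H1, 20 of H2A, 19 of H2B, 12 of H3 and 13 of H4. They include Hist1h2al, annotated as a pseudogene, and Hist3h2bb-ps, named as one. The RefSeq match failed for Hist1h2ap, whose symbol pointed to more than 1 entry, so 55 of the Hist1 genes were placed. The Hist1 range is the outermost span of those 55 genes and not the extent of a dense cluster. Start regions found for Hist1 genes, described below, all lay between 21716134 and 23934486.

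Nucleosomes hold DNA on a core of H2A, H2B, H3 and H4, and H1 binds the linker between them. Most of the clustered genes are transcribed as DNA is copied in S phase, and their mRNAs end in a stem-loop in place of a poly(A) tail. NPAT drives their transcription, SLBP binds the stem-loop, and the mRNAs are degraded when DNA synthesis stops. Variant histones such as H2A.X, H2A.Z and H3.3 are encoded outside the clusters and can be made in any phase. In T cells, the passage out of quiescence after activation is accompanied by rapid division.

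All cells were CD4 T cells from the spleen of C57BL/6 mice, either Setdb1-/- (KO) or Setdb1+/+ (wild type, WT). SETDB1 is an enzyme that methylates lysine 9 of histone H3. Naive cells (culture day 0) gave 3 KO and 4 WT libraries. Th2 cells (day 6) gave 3 KO and 3 WT libraries, after plate-bound anti-CD3 at 10 ug/mL, anti-CD28 at 1 ug/mL, IL-4 at 50 ng/mL and anti-IFN-gamma at 10 ug/mL, with IL-2 at 30 IU/mL and no antibody to CD3 or CD28 from day 3. Th2-Th1 cells, which were Th2 cells washed and moved on day 6 to IL-12 at 10 ng/mL with anti-IL-4 at 10 ug/mL, gave 3 KO and 2 WT libraries, labelled with 2 culture days. How Setdb1 was deleted, and in which cells, is not stated in the labels used here. Chromatin came from naive and Th2 cells, with Suv39h1-/- Th2 cells added for H3K9me3, the trimethyl mark that SETDB1 and SUV39H1 place.

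Depth differed between genotypes. Libraries held 12.775 to 15.335 M reads in naive KO, 10.019 to 18.511 M in naive WT, 36.261 to 44.719 M in Th2 KO, 10.141 to 13.258 M in Th2 WT, 37.208 to 37.603 M in Th2-Th1 KO, and 18.901 and 19.841 M in Th2-Th1 WT. At an equal depth of 10019187 reads, naive KO replicate 2 and naive WT replicates 1 and 3 detected 22217, 21268 and 25556 genes, against 15110 to 18669 in the other libraries. The targeted gene went against its label in cultured cells. Setdb1 had normalised read counts of 8070, 9044 and 8342 in Th2 KO libraries, against 694, 933 and 841 in Th2 WT, and 7389, 5430 and 5914 in Th2-Th1 KO, against 1611 and 1594 in Th2-Th1 WT. In naive cells it was 1103, 933 and 984 in KO, against 1336, 1366, 1325 and 1214 in WT. KO below therefore means the libraries labelled Setdb1 KO. Summed counts of 6 T cell markers were high in every library but lower in KO in each pair, with no overlap: 56063 to 70338 in naive KO, against 71805 to 80381 in naive WT, 29163 to 33406 in Th2 KO, against 44933 to 45570 in Th2 WT, and 43108 to 49215 in Th2-Th1 KO, against 94560 and 99050 in Th2-Th1 WT. Those of 5 B cell markers were 0 to 252, of 2 CD8 markers 42.4 to 565 and of 6 myeloid markers 2.69 to 192. NK markers, mostly Gzma in cultured cells, summed to 72.2 to 102 in naive KO, against 19.2 to 65.2 in naive WT, to 5358 to 5524 in Th2 KO, against 10953 to 14271 in Th2 WT, and to 8935 to 12928 in Th2-Th1 KO, against 5974 and 9900 in Th2-Th1 WT. In limma, Gzma differed by 1.296 (log2) in naive KO against naive WT (adjusted p = 0.00145) and by -1.16 in Th2 KO against Th2 WT (adjusted p = 0.000893). Haemoglobin and other erythroid or platelet transcripts summed to 388 to 430 in Th2 KO, against 31.5 to 77.3 in Th2 WT. They summed to 35.9 to 366 in naive KO and to 2.74 to 214 in naive WT. Most of the Th2 KO sum came from Hba-a1, at 391 ± 20.5. In limma, Hba-a1 was higher in Th2 KO than in Th2 WT (log2 4.23, adjusted p = 0.00289). Klf1 was lower (log2 -2.96, adjusted p = 0.00548), and Alas2 and Hbb-bt were not called. The part of these marker differences in the results below was not tested.

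Values are the authors' normalised read counts, that is, read numbers corrected for each library's size factor, given per library or as mean ± SD. On a ratio of summed counts, which divides 1 group mean by another, ± is an error propagated from the SDs of both groups. A log2 difference, with its standard error (SE), is the first group minus the second on the scale log2(count + 1), and was called at a Benjamini-Hochberg adjusted p under 0.05 in limma over all 17254 genes tested. Of the 70 histone genes 68 were tested. Hist2h3c1 had no read in any of the 18 libraries, which allows up to 3 reads per library, and Hist1h2ap was too low. The labels do not say whether replicates were separate animals or cultures, so p measures the spread between libraries. Genes with near-identical copies, such as the H4 genes, can share reads, and each single value for them is uncertain. Whether libraries were selected for poly(A) or counted by strand is not stated.

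The start regions of 6 histone genes are shown because the genotype or switch comparisons below describe each of these genes by library, and because they differ in motif content. They are the 250 bases before the annotated start, 5′ to 3′ on the gene's strand, from RefSeq on GRCm38.p6, and windows were found for 61 of the 70 genes. Capitals mark 4 motifs on either strand: the CCAAT box (CCAAT), the TATA box (TATAAA), the H1 AC box (AAACACA) and the octamer bound by OCT1 (ATTTGCAT). Hist1h2aa (chr13:23934187-23934436, + strand) is read away from Hist1h2ba, and the windows of this testis H2A and testis H2B share 220 bases. The others are Hist1h1a (chr13:23763418-23763667, + strand), Hist1h4c (chr13:23698459-23698708, - strand), Hist4h4 (chr6:136804432-136804681, - strand), Hist2h2bb (chr3:96269450-96269699, + strand) and Hist1h2af (chr13:23533625-23533874, + strand).
Hist1h2aa: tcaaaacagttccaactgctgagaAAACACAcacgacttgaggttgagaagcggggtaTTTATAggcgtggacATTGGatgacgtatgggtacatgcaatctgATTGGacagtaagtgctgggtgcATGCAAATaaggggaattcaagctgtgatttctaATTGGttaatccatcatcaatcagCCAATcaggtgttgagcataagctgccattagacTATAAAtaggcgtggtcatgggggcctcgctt
Hist1h1a: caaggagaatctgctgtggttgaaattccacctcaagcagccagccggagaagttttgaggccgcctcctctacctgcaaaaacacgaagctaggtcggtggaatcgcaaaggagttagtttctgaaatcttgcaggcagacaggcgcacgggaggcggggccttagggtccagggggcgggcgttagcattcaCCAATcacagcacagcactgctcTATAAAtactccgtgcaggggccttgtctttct
Hist1h4c: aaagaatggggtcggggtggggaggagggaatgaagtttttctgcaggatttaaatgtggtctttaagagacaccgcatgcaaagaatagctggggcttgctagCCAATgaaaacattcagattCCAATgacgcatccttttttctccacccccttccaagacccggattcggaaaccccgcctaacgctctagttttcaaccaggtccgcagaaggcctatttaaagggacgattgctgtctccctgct
Hist4h4: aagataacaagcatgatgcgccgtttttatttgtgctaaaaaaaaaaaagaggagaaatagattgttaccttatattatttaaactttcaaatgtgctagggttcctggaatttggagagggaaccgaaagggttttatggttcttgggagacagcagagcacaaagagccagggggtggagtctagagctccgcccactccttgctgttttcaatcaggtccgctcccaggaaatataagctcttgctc
Hist2h2bb: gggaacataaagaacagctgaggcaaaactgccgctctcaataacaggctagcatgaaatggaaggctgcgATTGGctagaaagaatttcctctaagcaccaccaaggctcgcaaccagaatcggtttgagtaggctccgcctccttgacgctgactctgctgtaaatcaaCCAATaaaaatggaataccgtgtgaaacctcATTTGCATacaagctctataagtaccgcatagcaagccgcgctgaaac
Hist1h2af: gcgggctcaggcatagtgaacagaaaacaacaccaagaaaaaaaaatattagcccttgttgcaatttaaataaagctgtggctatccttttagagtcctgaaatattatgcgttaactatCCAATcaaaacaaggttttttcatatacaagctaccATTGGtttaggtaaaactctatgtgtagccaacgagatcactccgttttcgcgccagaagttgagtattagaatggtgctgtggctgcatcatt

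Over windows that also took in 50 bases after the start, CCAAT was present in 52 of 61 histone genes (85.2%), against 37.9% of 27025 genes in the same table. All 6 H1, 17 H2A, 16 H2B and 10 H3 windows held it, against 3 of 12 H4 windows. Hist4h4 above has no capital at all, and Hist1h4c has 2 CCAAT boxes. TATAAA was in 57.4% of histone windows and 14.2% of all. The H1 AC box was in 5 of 6 H1 windows, Hist1h1a being the exception, and in 7.14% of all. The octamer was in 7 of 17 H2A and 6 of 16 H2B windows, in no H1, H3 or H4 window, and in 1.75% of all. Windows of 9 H2A and H2B pairs overlap by 220 to 279 bases, so a single motif copy can count for both genes. No 2 matches overlapped in the sequences shown, and a match is a string of letters, not a shown binding site.

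In naive cells, histone genes were higher in KO. Of 68 tested, 31 rose and 0 fell in KO, with a median log2 difference of 0.96, while 10.9% of all genes were called (7.43% higher, 3.45% lower) with a median of -0.005. The 31 were all in Hist1, out of 55 tested there, against 0 of 9 in Hist2, 0 of 3 in Hist3 and 0 of 1 in Hist4. By type, 3 of 6 H1, 8 of 19 H2A, 8 of 19 H2B, 7 of 11 H3 and 5 of 13 H4 genes rose. In bulk RNA, more cells of a kind and more RNA per cell cannot be told apart. Fitting naive libraries alone called 10 of these genes, and leaving out the 3 naive libraries that stood apart called 22, each time 0 lower.

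Among linker histones, Hist1h1b (H1.5) had 797, 927 and 1060.5 counts in naive KO, against 32.4, 111, 92.3 and 56.7 in naive WT. Every KO library lay above every WT library, and the log2 difference was 3.78 (SE 0.27, adjusted p = 1.13e-08). Hist1h1a (H1.1) had 528, 749 and 776 counts in naive KO, against 177, 149, 196 and 216 in naive WT, again with no overlap (1.88, SE 0.20, adjusted p = 2.57e-06). Hist1h1c (H1.2), the most abundant H1 gene, had 8132 ± 1253 in naive KO and 9429 ± 1724 in naive WT and was not called (-0.21, SE 0.16). It made up 65.4% ± 4.13 of summed H1 counts in naive KO and 80.3% ± 3.35 in naive WT (SD, n = 3 and 4).

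The H2A gene Hist1h2af had the largest difference in naive cells. Its counts were 486, 538 and 486 in naive KO, against 12.5, 35.6, 30.8 and 14.2 in naive WT, a log2 difference of 4.51 (SE 0.25, adjusted p = 6.67e-10). The H3 genes Hist1h3g, Hist1h3b, Hist1h3c and Hist1h3d followed, with log2 differences of 3.98, 3.82, 3.67 and 3.50. Hist1h3b had 113, 171 and 171 counts in naive KO, against 11.2, 4.11, 29.0 and 5.67 in naive WT. Among H4 genes Hist1h4f had 280.0, 349.7 and 277 in naive KO, against 39.9, 42.5, 39.8 and 42.5 in naive WT (2.84, SE 0.14, adjusted p = 1.95e-10). None of these groups overlapped. The most abundant H4 gene, Hist1h4d, had 7312 ± 1530.2 in naive KO and 7039.9 ± 1289 in naive WT (0.05, SE 0.29).

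Of all genes 7.43% were higher and 3.45% lower in naive KO. S phase genes rose in the same libraries: 26 of 33 tested were higher and 0 lower in naive KO (median 0.77). They included Orc1 (4.22, SE 0.59) of the origin recognition complex, Cdc6 (3.31, SE 0.21), which loads the replicative helicase, and Uhrf1 (3.12, SE 0.17), which carries DNA methylation through replication. The chaperone subunit Chaf1a, which places H3 and H4 on new DNA, had 207 ± 69.5 in naive KO and 16.5 ± 9.15 in naive WT (3.66, SE 0.29). Of 13 genes of histone transcription and pre-mRNA processing only Npat was called (0.51, SE 0.10), and of 7 decay genes only the exonuclease gene Xrn1 (0.81, SE 0.13). Of 12 tested variant genes H2afx (H2A.X) rose (1.23, SE 0.17), whereas H1f0, an H1 of resting and differentiated cells, and H2afj fell by 1.305 and 0.483 on the log2 scale. The lists of S phase, chaperone, processing, decay and variant genes were chosen with earlier results of these data known.

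**Figure D1:**
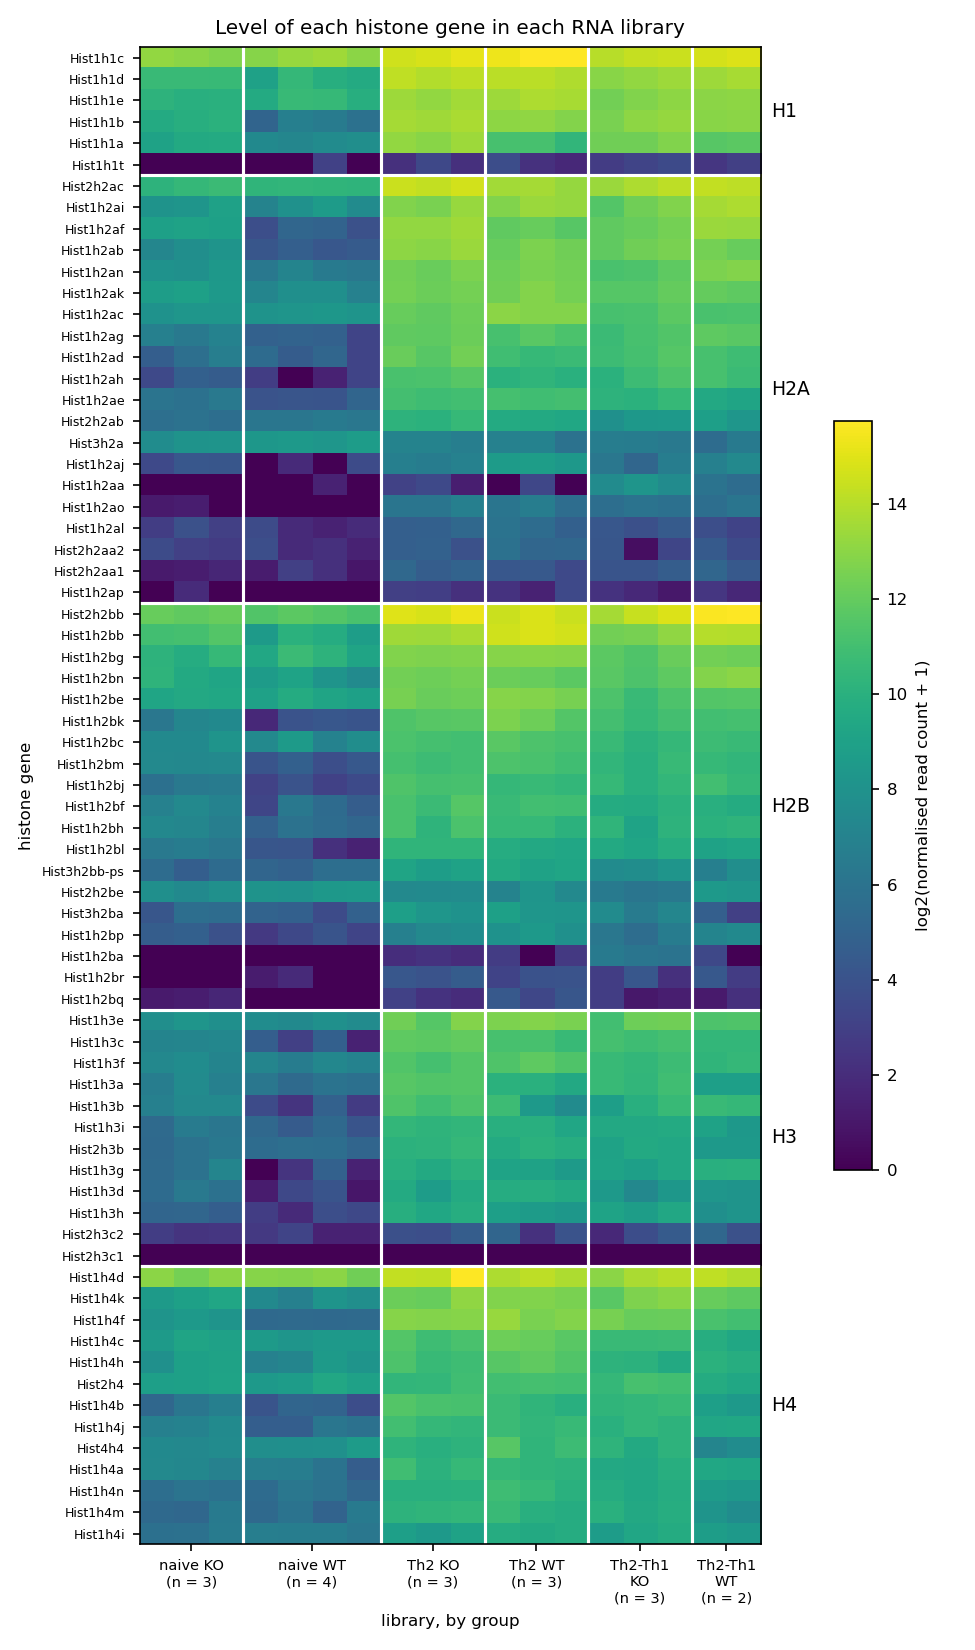
Heat map of log2(normalised read count + 1) for the 70 histone genes in 18 libraries (across, by group). Genes run down the page by type and, within a type, by mean count. Most Hist1 genes are dark in the 7 naive libraries and bright in Th2 and Th2-Th1 libraries, and the 3 naive KO libraries lie above the 4 naive WT libraries in the 31 genes called there, except Hist1h2aj, whose groups overlap.

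Histone genes rose in Th2 culture in both genotypes. Of 68 tested, 64 were higher and 2 lower in Th2 WT than in naive WT (median 4.48; 65.9% of all genes were called, 32.8% higher and 33.1% lower, median -0.14). With KO cells the counts were 63 higher and 1 lower in Th2 KO than in naive KO (median 3.66; 53.5% of all genes called, 28.3% higher, 25.2% lower, median -0.03). Setting genes with no read in naive cells to the bound that 3 reads allow gave medians of 3.62 in KO and 4.41 in WT. By type the WT medians were 5.35 for H2A, 5.04 for H3, 4.32 for H4, 3.96 for H2B and 3.43 for H1.

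Summed over the 70 genes, counts were 321719 ± 56582 in Th2 KO and 38354 ± 2156 in naive KO, a ratio of 8.39 ± 1.55. They were 300316 ± 23825 in Th2 WT and 30227 ± 4837 in naive WT, a ratio of 9.94 ± 1.77. The WT ratio on library totals (RPM) was 7.09, and without Hist1h1c the WT ratio of counts was 12.04. Histone genes took 1.79% of all reads in Th2 KO, 1.21% in Th2 WT, 0.218% in naive KO and 0.170% in naive WT. By type, H3 was 32.6-fold and H4 5.52-fold higher in Th2 WT than in naive WT.

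The H2B gene Hist1h2bk had the largest difference in WT, with 6349, 5016 and 2961 counts in Th2 WT, against 2.49, 15.1, 18.1 and 16.1 in naive WT (8.61, SE 0.43, adjusted p = 1.06e-12). It was followed by the H2A genes Hist1h2ah (8.205) and Hist1h2ab (7.93) and the H4 gene Hist1h4f (7.50). In KO, Hist1h2ah led with 2373, 2507 and 3176 in Th2 KO, against 9.91, 27.8 and 22.9 in naive KO (7.09, SE 0.57). Hist1h2ao, an H2A gene with no read in naive WT, averaged 72.1 in Th2 WT, which is at least 17.9-fold higher when naive WT is set to the 3 reads per library that a count of 0 allows. All of these groups stood clear of each other.

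Only Hist3h2a fell in both genotypes, at 129, 128 and 107 counts in Th2 KO, against 202, 265 and 284 in naive KO (-1.03, SE 0.28), and at 119, 122 and 59.9 in Th2 WT, against 322, 348, 313 and 423 in naive WT (-1.86, SE 0.26). This H2A gene overlaps Trim17, and reads of the pair cannot be told apart without strand. Hist2h2be, an H2B variant known from olfactory neurons in mouse, was lower in Th2 WT than in naive WT (-0.71, SE 0.22) though 1 Th2 WT library overlapped the naive range. S phase genes moved with the histone genes: 33 of 33 rose in Th2 KO and 32 of 33 in Th2 WT. Of all genes, 28.3% rose in Th2 KO and 32.8% in Th2 WT. Among variants, Cenpa, the centromeric H3, rose by 2.81 in Th2 KO and 2.66 in Th2 WT, and H1f0 by 4.35 and 3.61. Slbp was 1.81 higher in Th2 KO than in naive KO, and 1.06 higher in Th2 WT than in naive WT.

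**Figure D2:**
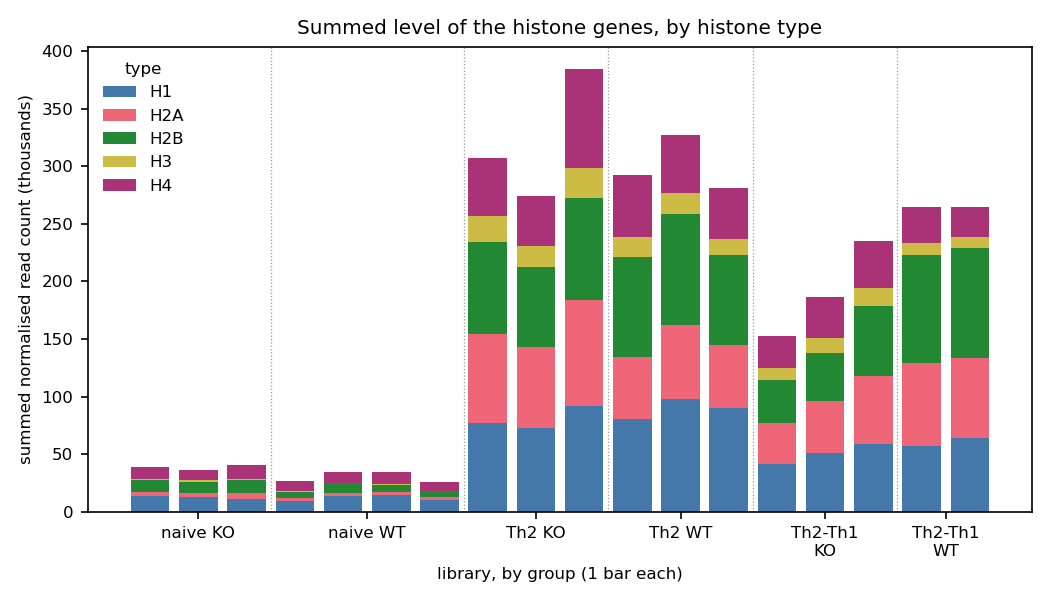
Summed normalised read counts (stacked by histone type) of the 70 histone genes in each library, by group. The 7 naive bars are all far below the Th2 bars, and the 3 Th2-Th1 KO bars, which add up to 191449 ± 41490 on average, lie below both Th2-Th1 WT bars.

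The size of the culture difference depended on genotype for part of the genes. In the test of that dependence, 26 of 68 genes had a smaller log2 difference in KO and 2 a larger one (median -0.78; 41.3% of all genes called, 20.7% higher, 20.6% lower, median 0.10). All 26 were in Hist1 (of 55), and both exceptions, Hist2h2ab (1.24, SE 0.27) and Hist2h2ac (0.86, SE 0.22), were H2A genes of Hist2. Hist1h1b is an example: its culture difference was 3.78 in KO and 6.94 in WT, and the test gave -3.16 (SE 0.39, adjusted p = 3e-06). Its naive level differed between genotypes, as given above, while its Th2 counts were 12693 ± 1094 in KO and 8271 ± 830.2 in WT. Over all 68 genes, the test subtracts the naive genotype difference (median 0.96) from the Th2 genotype difference (median 0.07). It uses the same libraries, so it is not independent of the naive result above.

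In Th2 cells, the genotypes differed in both directions. Of 68 tested genes, 12 were higher and 7 lower in Th2 KO than in Th2 WT (median 0.07; 54% of all genes called, 29.3% higher, 24.7% lower, median 0.13). The share called, 19 of 68, was below that of all genes. Rescaling by TMM moved the median of all genes by 0.11 to 0.24 and gave 17 higher and 7 lower; edgeR on recovered reads gave 22 and 7. The summed count ratio was 1.07 ± 0.207 on the deposited scale and 1.49 on library totals (RPM), and ribosomal protein genes took 2.16% to 2.28% of reads in Th2 KO, against 6.16% to 6.95% in Th2 WT. Their part in the ratio was not tested.

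Linker histones shifted in composition. Hist1h1a had 9187, 7826 and 11120.4 counts in Th2 KO, against 2327, 2308 and 1287 in Th2 WT, with no overlap (2.28, SE 0.21, adjusted p = 2.47e-08). Hist1h1c had 25048, 28120.5 and 36133 in Th2 KO, against 41467, 54695 and 53408 in Th2 WT, also with no overlap (-0.75, SE 0.17, adjusted p = 0.000976). As a share of H1 counts, Hist1h1a was 11.6% ± 0.755 in Th2 KO and 2.23% ± 0.738 in Th2 WT, and Hist1h1c 36.8% ± 3.87 in Th2 KO and 55.5% ± 3.95 in Th2 WT (SD, n = 3 each). Hist1h1b, Hist1h1d and Hist1h1e were not called.

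**Figure D3:**
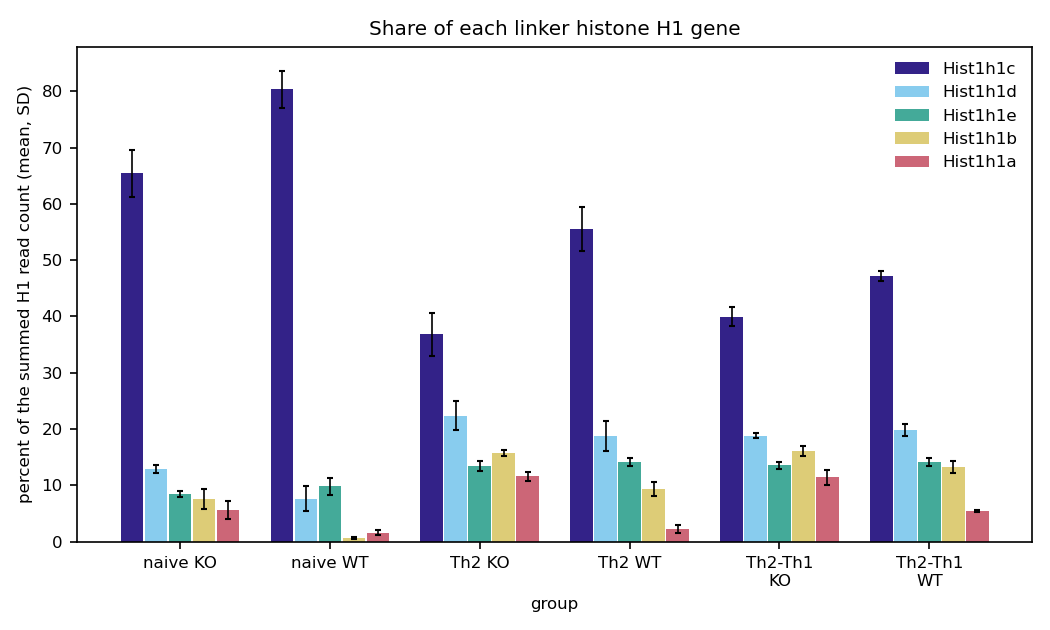
Share of each H1 gene in the summed H1 count (percent, mean with SD as error bar) in the 6 groups; the testis gene Hist1h1t, near 0, is left out. Hist1h1c is the largest in every group, lower in KO than in WT in each pair, and Hist1h1a is higher in KO in each pair.

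Of the core histones, 5 of 19 H2A, 1 of 19 H2B, 3 of 11 H3 and 2 of 13 H4 genes rose, and 2 H2A, 1 H2B, 0 H3 and 3 H4 genes fell. None of these types had a larger share of higher calls than the 29.3% of all genes. Hist1h3a had 3188, 2814 and 3013 counts in Th2 KO, against 1079, 1032 and 726 in Th2 WT (1.69, SE 0.23, adjusted p = 3.99e-06), and Hist1h2af 9484, 9406 and 11574 in Th2 KO, against 3851, 4268 and 3176 in Th2 WT (1.44, SE 0.27, adjusted p = 0.000172). Neither pair of groups overlapped. Hist1h3b had 2733, 1900.2 and 2571 in Th2 KO, against 1760.2, 367 and 192 in Th2 WT (2.25, SE 0.64), and its call was lost without Th2 WT replicate 3. The H2A gene Hist2h2ac was 22924 ± 2980.3 in Th2 KO and 11375 ± 1649.6 in Th2 WT (1.01, SE 0.16).

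Those that fell included the H2B gene Hist1h2bb, with 11581, 11256 and 13639 counts in Th2 KO, against 24373, 29491 and 25620.1 in Th2 WT (-1.12, SE 0.28, adjusted p = 0.00238). The H2A gene Hist1h2ac had 4406, 3871 and 4869 in Th2 KO, against 8049, 7317 and 7132 in Th2 WT (-0.78, SE 0.14, adjusted p = 8.65e-05). The H4 genes Hist1h4c, Hist1h4i and Hist4h4 differed by -0.83, -0.83 and -0.81, and Hist4h4 lost its call without Th2 KO replicate 2 or Th2 WT replicate 1. Hist1h4d was 20032, 18948 and 54522 in Th2 KO, against 14372, 18728 and 14551 in Th2 WT. Its call (0.80, SE 0.31) was lost without Th2 KO replicate 3, the library with the high value, and without Th2 WT replicate 1 or 3. Hist1h2aj (-1.83, SE 0.69) lost its call without any 1 of the 6 Th2 libraries.

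Partner genes moved as follows in Th2 KO against Th2 WT, where 54% of all genes were called (29.3% higher, 24.7% lower). Of the S phase list 24 of 33 rose and 1 fell (median 1.07), among them Rrm2 (2.35, SE 0.25), which makes deoxynucleotides. Of the chaperones 14 of 21 rose and 2 fell, among them Cabin1 (2.11, SE 0.13) and Chaf1b (1.94, SE 0.20). Of the processing genes 7 of 13 rose and 1 fell: Srrt (1.87, SE 0.12), Pou2f1, which encodes OCT1 (1.39, SE 0.16), and Casp8ap2 (1.09, SE 0.13), with Cpsf2, Slbp, Npat and Cpsf3 smaller and Sympk lower. Of 12 variant genes 3 rose and 2 fell. H2afx had 15932 ± 1196 in Th2 KO and 3162 ± 736 in Th2 WT (2.36, SE 0.18), H2afz rose by 1.15, and H2afj and H3f3b fell by 0.56 and 0.33. Of the 7 decay genes 3 rose, Upf1 (1.35), Xrn1 (0.96) and the exonuclease gene Eri1 (0.50), and 3 fell, Zcchc11 (-0.76), Lsm1 (-0.70) and Zcchc6 (-0.30).

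**Figure D4:**
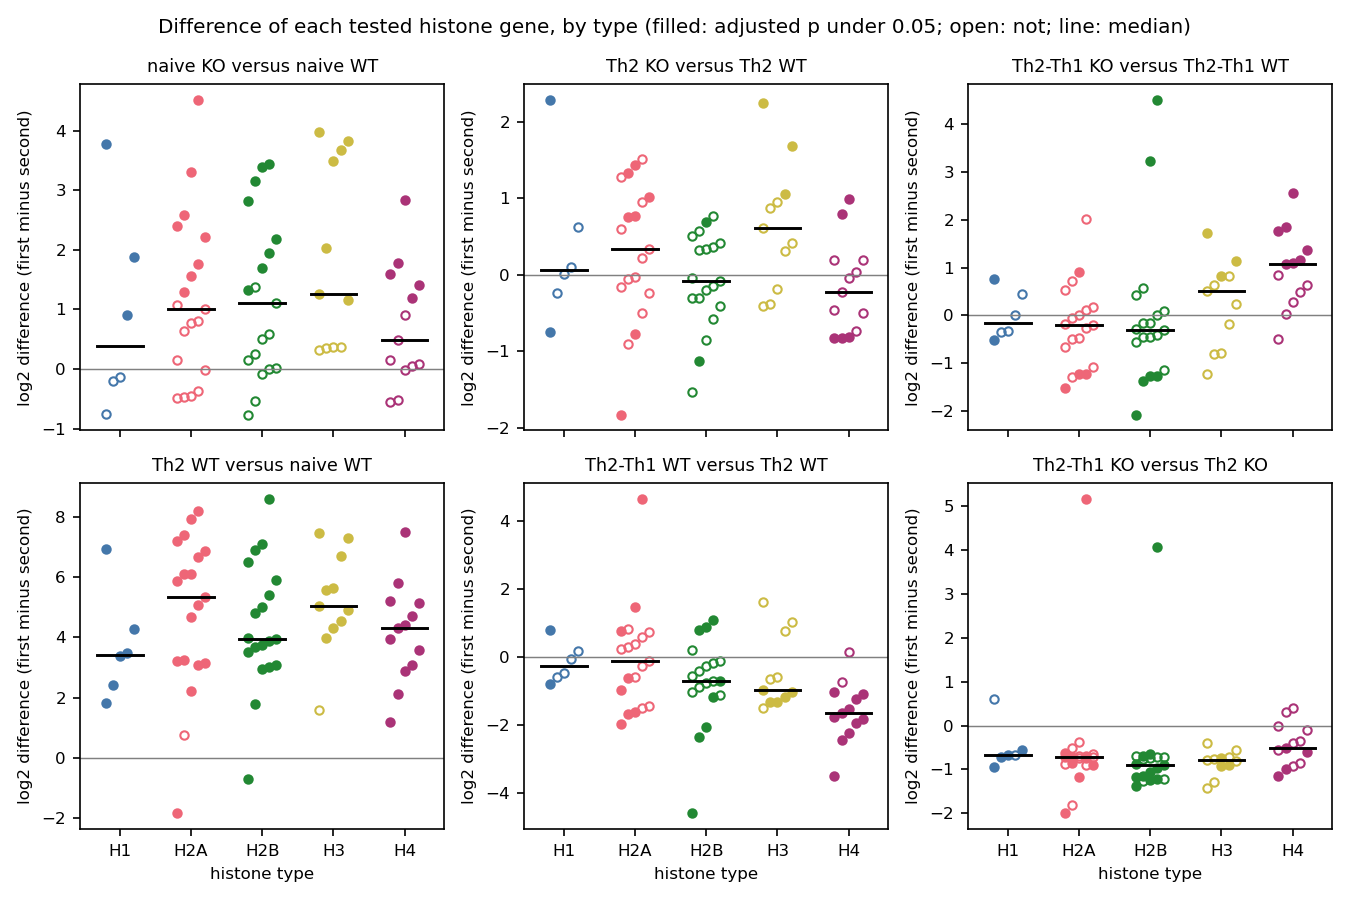
Log2 difference of each tested histone gene (points) by histone type, in 6 comparisons; filled points have an adjusted p under 0.05, open ones do not, and the line is the median of a type. In Th2 culture nearly all points lie above 0; in Th2-Th1 KO against Th2-Th1 WT the H4 median is 1.08 while the H2A and H2B medians are -0.20 and -0.30.

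After the move to IL-12, more histone genes fell than rose in both genotypes. In Th2-Th1 WT against Th2 WT, 27 of 68 genes fell and 7 rose (median -0.69; 49.8% of all genes called, 25.8% higher, 24% lower, median 0). H4 stood at 11 of 13 lower and 0 higher with a median of -1.63, H3 at 5 of 11 lower, and H2A and H2B at 3 higher and 5 lower each, of 19. The most abundant H4 gene, Hist1h4d, did not fall in WT. Per kb of gene it had 43570 ± 6267 counts in Th2-Th1 WT and 39512 ± 6132 in Th2 WT. It made up 60.3% ± 0.730 of H4 counts in Th2-Th1 WT and 32.3% ± 5.28 in Th2 WT. Summed H4 counts had a ratio of 0.587 ± 0.0968. In Th2-Th1 KO against Th2 KO, 30 fell and 2 rose (median -0.75; 26.7% of all genes called, 13% higher, 13.6% lower, median 0), with 11 of 19 H2B, 8 of 19 H2A, 4 of 6 H1, 3 of 11 H3 and 4 of 13 H4 genes lower. The type medians in KO were -0.67 for H1, -0.72 for H2A, -0.89 for H2B, -0.79 for H3 and -0.51 for H4, and in WT -0.25, -0.11, -0.69, -0.97 and -1.63 in the same order. Differences between types were not tested. Without Th2 KO replicate 3 the KO count was 18, and without Th2-Th1 KO replicate 1 or 2 it was 21 or 19.

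Hist4h4 fell most of the H4 genes in WT, at 144 and 203 counts in Th2-Th1 WT, against 3199.9, 1251 and 1784 in Th2 WT (-3.48, SE 0.31, adjusted p = 2.1e-08). Hist1h4c had 885 and 677 in Th2-Th1 WT, against 4867, 4414 and 3375 in Th2 WT (-2.43, SE 0.20, adjusted p = 7.08e-09). The same genes in KO were at 1217, 741 and 1176 (Hist4h4) and 1625, 1646 and 1669 (Hist1h4c) in Th2-Th1 KO, against 1181, 979 and 1150.1, and 2978, 1838 and 2357, in Th2 KO. In KO, Hist4h4 was not called (-0.11, SE 0.28), and Hist1h4c fell by 0.51 (SE 0.18).

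H2B of the Hist2 cluster went the other way in WT. Hist2h2bb had 52099.8 and 54188 counts in Th2-Th1 WT, against 22798, 29939.7 and 22359.6 in Th2 WT (1.10, SE 0.24, adjusted p = 0.00089), and per kb of gene it was the highest of the 62 histone genes spanning up to 1 kb in both Th2-Th1 groups. In KO it had 12689, 21874 and 30532 in Th2-Th1 KO, against 32185, 28155 and 39779 in Th2 KO, with overlap. Hist1h2af fell in KO (-1.18, SE 0.27) and rose in WT (1.48, SE 0.30).

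The testis genes Hist1h2aa and Hist1h2ba, read away from each other, were near 0 before the switch. Hist1h2aa had 190.3, 299.5 and 189 counts in Th2-Th1 KO, against 7.55, 10.3 and 1.499 in Th2 KO (5.16, SE 0.83, adjusted p = 8.86e-05), and 62.6 and 46.5 in Th2-Th1 WT, against 0, 9.28 and 0 in Th2 WT (4.66, SE 0.93, adjusted p = 0.000315). Hist1h2ba had 89.5, 68.6 and 62.1 in Th2-Th1 KO, against 3.18, 4.03 and 3.00 in Th2 KO (4.07, SE 0.83), and 9.45 and 0 in Th2-Th1 WT, against 6.05, 0 and 4.99 in Th2 WT, where it was not called. The pair overlaps the predicted gene Gm33516, so reads of 1 may belong to another.

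Set genotype against genotype, Th2-Th1 KO had 14 of 68 genes higher and 8 lower than Th2-Th1 WT (median -0.0006; 33.7% of all genes called, 17.6% higher, 16.1% lower, median 0.09). H4 made up 7 of the 14, of 13 tested and 0 lower, with a median of 1.08, H3 3, and H2B 2 higher and 4 lower. The most abundant H4 gene, Hist1h4d, went the other way and was not called (-0.50, SE 0.35). The ratio of summed H4 counts was 1.20 ± 0.272. Hist1h2ba led with 89.5, 68.6 and 62.1 counts in KO, against 9.45 and 0 in WT (4.51, SE 0.92), a call lost without Th2-Th1 WT replicate 2. Hist4h4 had 1217, 741 and 1176 in KO, against 144 and 203 in WT (2.57, SE 0.31, adjusted p = 3.8e-06).

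Hist2h4 was 1907 ± 408 in Th2-Th1 KO and 731 ± 112 in Th2-Th1 WT (1.37, SE 0.23), and Hist1h4m and Hist1h4b were 1.86 and 1.77 higher. Hist3h2ba, an H2B gene overlapping Gm51864, was 144 ± 49.5 in Th2-Th1 KO and 16.5 ± 13.4 in Th2-Th1 WT (3.24, SE 0.56). Lower in KO were Hist2h2be, with 83.2, 67.6 and 77.8 counts in Th2-Th1 KO, against 345 and 307 in Th2-Th1 WT (-2.08, SE 0.27, adjusted p = 7.43e-06), Hist1h2ai (-1.52, SE 0.38) and Hist2h2bb (-1.38, SE 0.24). The summed count was 191449 ± 41490 in Th2-Th1 KO and 264787 ± 19.2 in Th2-Th1 WT, a ratio of 0.723, or 0.886 on library totals (RPM). H4 took 18.3% ± 0.938 of it in KO and 11.0% ± 1.45 in WT, and H2B 24.2% ± 1.74 in KO and 35.9% ± 0.332 in WT (SD, n = 3 and 2).

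The test of whether the switch differed by genotype gave 11 genes higher and 11 lower (median -0.005; 35.5% of all genes called, 17.3% higher, 18.2% lower, median -0.05). In edgeR on recovered reads the split was 10 and 17. H4 stood at 7 higher and 1 lower of 13 (median 1.21), a split that was 7 and 1 under TMM, edgeR and DESeq2 too, and Hist2 at 1 higher and 4 lower of 9. The largest were Hist1h2ba (4.18, SE 1.24), which was lost in edgeR and without Th2-Th1 WT replicate 2, Hist4h4 (3.38, SE 0.42) and Hist3h2ba (3.32, SE 0.75), and, lower, Hist1h3b (-3.04, SE 0.96) and Hist1h2af (-2.66, SE 0.41). These comparisons share libraries with those above. Of the S phase list 2 rose and 7 fell in Th2-Th1 KO against Th2-Th1 WT, and 22 of 33 were lower in this test. Of all genes, 17.6% rose and 16.1% fell between these genotypes, and 18.2% were lower in this test. In that genotype comparison 6 of 21 chaperone genes rose and 7 fell, 4 of 13 processing genes rose and 2 fell, 3 of 7 decay genes rose and 2 fell, and 1 of 12 variant genes rose and 2 fell. Slbp, at 3557 ± 609 in Th2-Th1 KO and 5695 ± 908 in Th2-Th1 WT, fell by 0.68, and the chaperone gene Nasp by 1.13, while Zfp473, which acts in the 3′ end processing of histone mRNA, rose by 2.90.

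**Figure D5:**
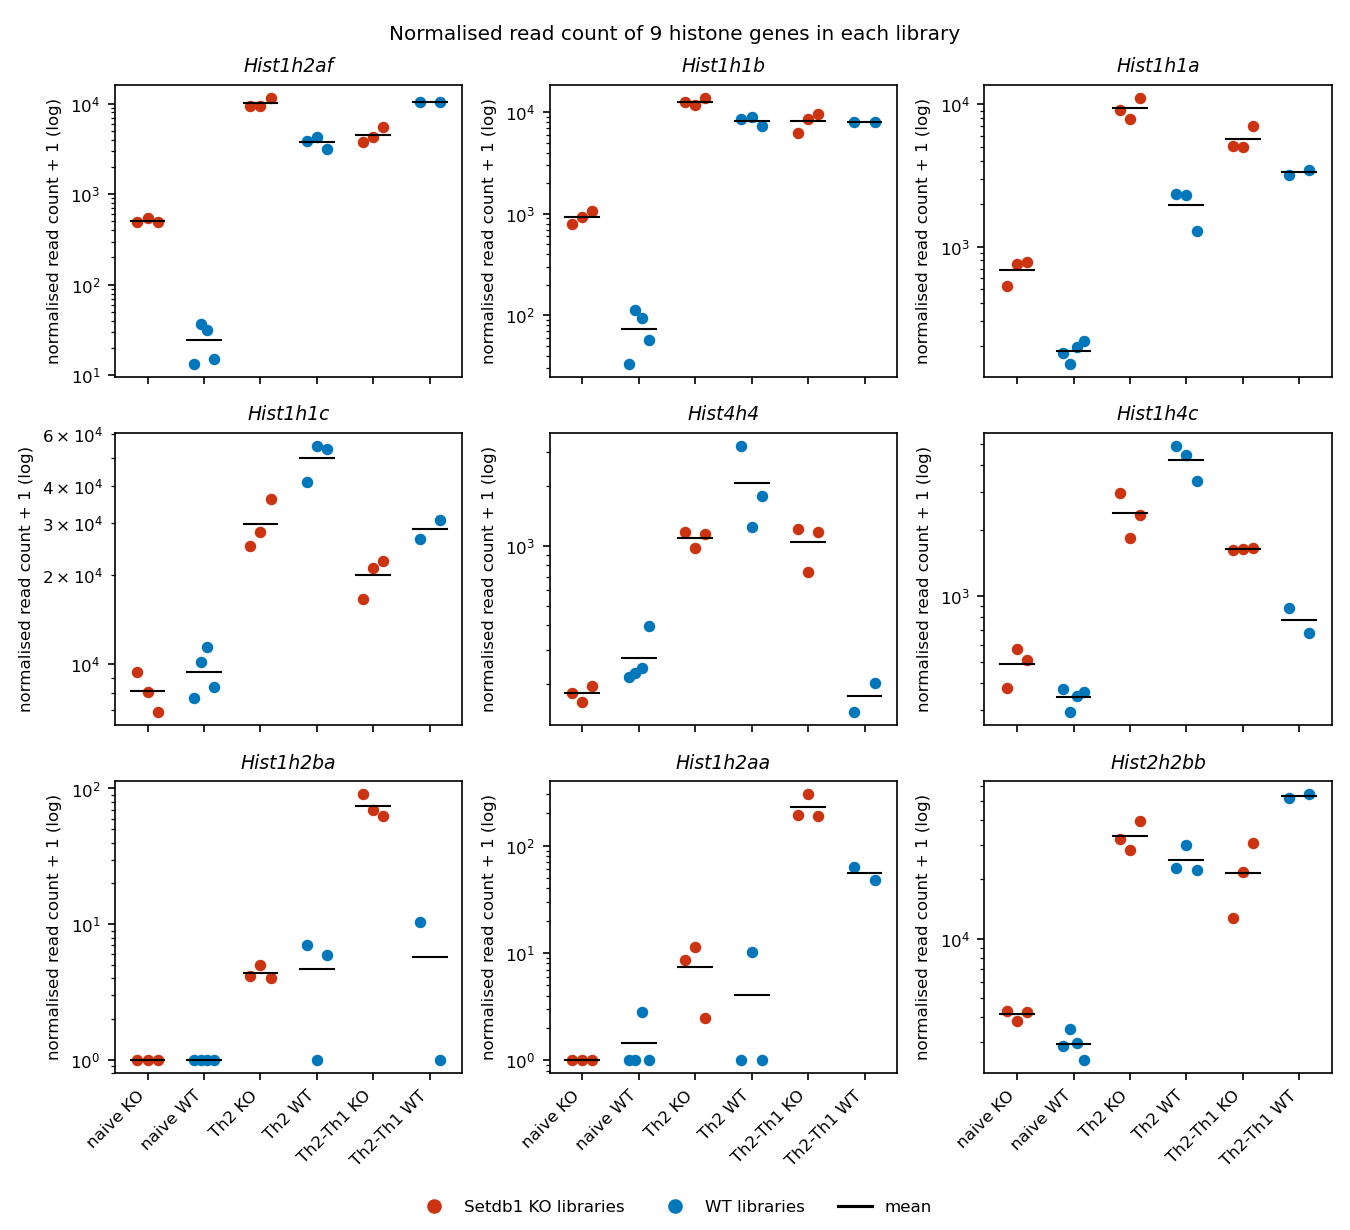
Normalised read count + 1 (log axis) of 9 histone genes in each library (points) by group, with the group mean as a line. Hist4h4 is low in the 2 Th2-Th1 WT libraries, and Hist1h2aa rises above its naive and Th2 level in all 5 Th2-Th1 libraries.

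Neighbours that share a start region did not always share a call. Of 9 H2A and H2B pairs whose windows overlap by 220 to 279 bases, both members had the same call in 7 pairs in Th2 KO against Th2 WT and in 4 pairs in Th2-Th1 KO against Th2-Th1 WT. In the second comparison Hist1h2ai differed by -1.52 and was called while its partner Hist1h2bl differed by 0.42 and was not, and Hist1h2bn differed by -1.27 and was called while Hist1h2ak differed by -0.18 and was not.

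Chromatin was described as peaks within 1 kb of each of the 69 placed genes, from 1 list per group, so no test was possible. Open chromatin (ATAC-seq) peaks lay near 66 genes in Th2 KO and 69 in Th2 WT, against 68.2% and 73.1% of 21887 protein-coding genes. Peaks of H3K27ac, a mark of active starts, lay near 66 in Th2 KO and 65 in Th2 WT, against 57.1% and 57.2%. The testis genes Hist1h1t, Hist1h2aa and Hist1h2ba had no H3K27ac peak in either genotype, and an open chromatin peak in Th2 WT only. The open chromatin list held 92129 peaks in Th2 WT and 58523 in Th2 KO. Hist1h1a had an H3K27ac peak in Th2 KO (chr13:23761673-23764360) and none in Th2 WT, while its open chromatin peak was present in both. H3K4me1 peaks lay near 65 to 67 genes in each list, against 62.8% to 69.2% of protein-coding genes. Among 1577 protein-coding genes of up to 1 kb, open chromatin peaks lay near 7.48% in Th2 KO and 9.64% in Th2 WT. For H3K27ac these shares were 7.10% in Th2 KO and 6.79% in Th2 WT, and for H3K4me1 7.61% to 9.77%.

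H3K9me3 peaks lay near few histone genes: 0 of 69 in naive KO and in Th2 KO, 2 in Suv39h1 KO Th2 cells (Hist1h2be and Hist1h2al), 1 in naive WT (Hist1h2be) and 1 in Th2 WT (Hist1h2al). The same lists held peaks near 2.01% of protein-coding genes in naive KO, 1.99% in Th2 KO, 41.1% in Suv39h1 KO, 14.5% in naive WT and 14.99% in Th2 WT, and in the same order they covered 2.29, 2.56, 77.04, 13.7 and 19.5 Mb. Histone genes are short, and among 1577 protein-coding genes of up to 1 kb the shares were 0.0634% in naive KO, 0.127% in Th2 KO, 2.09% in Suv39h1 KO, 0.380% in naive WT and 0.507% in Th2 WT. The histone shares of 2.90% in Suv39h1 KO and 1.45% in each WT list were not below these. Hist1h2be spans many kb in the annotation and overlaps Gm33387, so its peaks may lie far from the coding part, and Hist1h2al is annotated as a pseudogene.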

How the data were processed

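RNA was measured in 18 libraries of 6 groups. The deposited RNA values are signal, reads per gene divided by a DESeq size factor, by the authors. Per the submitters' processing notes, reads were handled with cutadapt 1.3, TopHat2 2.0.5 (RNA), BWA 0.7.10 and MACS2 2.1.0 (peaks) on mm10, while the gene annotation they counted on was not found in the labels. Peak lists (13, 1 per group and assay) carry, as deposited by the authors, a score per peak, and 8 also a fold ratio and a −log10 p value. These were used only to filter peaks.

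The table held 2 identical copies of 39179 genes, and the first was used. Values were whole reads to within 0.01 in 100% of cases after the size factor was undone. Genes at 10 or more in 2 or more libraries (17254) were fitted as log2(value + 1) in 1 limma 3.58.1 trend model (R 4.3.3) over all 18 libraries, with 12 residual degrees of freedom. A log2 fold on this scale understates the change of low genes. Adjusted p-values are Benjamini-Hochberg. The alternatives edgeR 4.0.16 and DESeq2 1.42.0 ran on the recovered reads, and the code was tested on simulated data. Peaks were counted within 1 kb of a gene with an overlap of at least 1 bp on 21 chromosomes. Tables and figures used Python 3.11.15, pandas 2.3.3, scipy 1.17.1 and matplotlib 3.10.9.

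Named genes were the 12 highest in mean, up to 6 each way per comparison among those called with no overlap, up to 4 per gene list, and Setdb1. Partner genes shown for contrast (divergent pairs, Hist1h4i, Hist1h2be, Hist1h2al) were named after their values were seen. The histone genes and all lists were chosen with earlier results of these data known. Libraries were not paired by replicate number in the main fit. Over 40 same-numbered pairs, correlations of deviations from group means ran from -0.41 to 0.13.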

Additional observations from a re-analysis of the deposited data

Results flagged for a closer look

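In naive WT, 1 of the 4 libraries lay far from the others for 4 genes: Hist1h2aa at 1.81 counts, Hist1h2ag at 8.503, Hist1h3g at 29.0 and Hist4h4 at 394. The Hist1h2aa value is 1 read, against 0 in the other libraries, and that of Hist1h2ag is 9 reads. Of 52 groups tested, 4 were flagged. Chance sets apart about 1 in 20 such groups.

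The Th2 culture difference depended on genotype for 28 of 68 histone genes in limma, while 41.3% of all genes were called, so the share is that of the background. Those with a larger log2 difference in KO were Hist2h2ab (1.24) and Hist2h2ac (0.86). Smaller in KO were Hist1h2aj (-4.41), Hist1h2bk (-4.01), Hist1h3d (-3.88), Hist1h2bm (-3.35), Hist1h1b (-3.16) and Hist1h2bb (-3.08), among others.

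The switch difference depended on genotype for 22 of 68 histone genes, while 35.5% of all genes were called, so the share is not above the background. Higher in KO were Hist1h2ba (4.18), Hist4h4 (3.38), Hist3h2ba (3.32), Hist1h4c (1.92), Hist2h4 (1.82) and Hist1h4m (1.66). Lower in KO were Hist1h3b (-3.04), Hist1h2af (-2.66), Hist2h2be (-2.04), Hist2h2bb (-1.80), Hist1h2bn (-1.64) and Hist1h1a (-1.52).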

How the results depend on the processing

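No call on a named gene turned direction in any setting. Summed ratios by type or cluster did turn with the scale: in Th2 KO against Th2 WT, H1 was 0.901 on the deposited scale and 1.25 on library totals (RPM), H2B 0.915 and 1.27, and Hist3 0.890 and 1.24, and in Th2-Th1 KO against Th2-Th1 WT, H1 was 0.8291 and 1.02. Of 174 results on named genes, 124 kept their call in all settings, 32 lost it in at least 1 and 18 gained one. For naive KO against WT, fitting only the 2 groups called 10 genes in place of 31. For Th2 KO against WT, edgeR called 29 in place of 19, and for Th2-Th1 KO against Th2 KO, sample weights called 52 in place of 32. The causes were not tested. Leaving out 1 library gave 28 to 33 calls for naive KO, 15 to 22 for Th2 KO, 15 to 24 for Th2-Th1 KO, 61 to 64 for culture in KO, 63 to 66 for culture in WT, 18 to 36 for the switch in KO, 26 to 39 for the switch in WT, 26 to 34 for the culture dependence and 18 to 24 for the switch dependence. Sum ratios on library totals (RPM) were 1.49 (Th2 KO), 0.886 (Th2-Th1 KO), 7.09 (culture in WT) and 0.968 (switch in WT). Without Hist1h1c, the ratio for culture in WT was 12.04 on the deposited scale and 8.59 on library totals (RPM). With peaks at or above the median score, 31 genes had H3K4me1 in naive WT (44.9%, against 41.7% of protein-coding genes). In Th2 WT 27 had it in 1 list (39.1%, against 46%) and 60 in the list labelled experiment2 (87.0%, against 53.4%). Th2 KO, also labelled experiment2, had 64 (92.8%, against 58.4%). Among protein-coding genes of up to 1 kb, the shares in the same order were 4.12%, 4.12%, 7.42% and 8.05%. For H3K9me3 in Th2 WT the filter left 0 genes, as did gene bodies alone (0).

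With the replicate number as a block, the counts were 31, 23 and 23 for naive, Th2 and Th2-Th1 KO against WT, 64 for culture in KO and 64 in WT, 36 for the switch in KO and 37 in WT, and 28 and 26 for the 2 dependences. 3 of 18 libraries correlated best with their own number. With group means of 2 to 4 libraries, this cannot show whether same-numbered libraries shared an animal or culture. Limits are the 2 Th2-Th1 WT libraries, unequal depth between genotypes, and 1 peak list per group.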
